A study of Mus musculus with 2 samples.

Results

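The lysyl oxidases are a small family of secreted, copper-dependent amine oxidases. The 5 members encoded in the mouse, Lox, Loxl1, Loxl2, Loxl3 and Loxl4, were taken by symbol from the 27998 genes of single-cell RNA sequencing libraries of limb tendon, and all 5 were found in both libraries. Tendons of fore- and hindlimbs were collected at P7 from pups labelled wild-type and from Tgfbr2;ScxCre mutants, and each library held the cells of 2 pooled pups. In the mutant, a floxed allele of the type II TGFβ receptor over a null allele (Tgfbr2 f/-) was removed by Cre recombinase under control of Scx, the gene of the tendon transcription factor scleraxis. Pups of both groups also carried the tendon reporter ScxGFP and the Cre reporter Ai14 Rosa26-tdTomato. Another label of the control library reads Het, so it may not be free of a Tgfbr2 or Cre allele, and it is called wild-type here after its title and genotype labels. Cre activity was stated by the study to be patchy among tendon cells of the embryo and complete only early after birth. The surface layers of the tendons were not scraped off before digestion, so cells from around the tendon were included.

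Lysyl oxidases convert lysine and hydroxylysine side chains of collagens and elastin into aldehydes, which then form the covalent cross-links that give these fibres their strength. Lox and Loxl1 are made as proenzymes and are activated by cleavage with procollagen C-proteinase (Bmp1) and its relatives, while Loxl2, Loxl3 and Loxl4 carry scavenger receptor domains in front of the catalytic domain. Lox is required for cross-linking of collagen and elastin in many tissues, and Loxl1 is best known for its part in elastic fibre renewal. Tendon is a tissue of type I collagen fibrils with sparse elastic fibres.

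What the members share is the catalytic domain with its copper site, and the coding stretch of that site is shown because it is the clearest sequence mark of the family. The stretch runs over 11 residues and 33 bases, and the codons of its 4 histidines, the residues among which copper is held, are in capitals. Sequences are from GENCODE M21 transcripts (GRCm38) on the coding strand, and the stretch crosses an intron in each of the 4 genes shown. The stretch of Lox is not reported here, which does not mean that Lox lacks it.
Loxl1: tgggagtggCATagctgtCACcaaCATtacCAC
Loxl2: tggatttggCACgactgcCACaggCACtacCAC
Loxl3: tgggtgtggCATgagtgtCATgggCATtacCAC
Loxl4: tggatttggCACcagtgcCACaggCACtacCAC
The stretch lies at chr9:58293720-58294381 (minus strand) in Loxl1, at chr14:69682316-69689037 (plus strand) in Loxl2, at chr6:83049995-83050125 (plus strand) in Loxl3 and at chr19:42598807-42599899 (minus strand) in Loxl4. Loxl2 and Loxl4 had 31 of 33 bases in common, whereas Loxl1 had 21 to 25 in common with the other 3 genes shown.

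The counts are of 3′ ends, and there the members are easily told apart. Over whole transcripts, the longest run of bases that any pair of members had in common was 32, and over the last 500 bases it was 8 to 11. The proteins have 411 residues in Lox, 607 in Loxl1, 776 in Loxl2, 754 in Loxl3 and 758 in Loxl4 for the longest coding transcript. Only for Loxl3 does another gene cover the 3′ end. Htra2, which encodes a mitochondrial protease, lies on the opposite strand and overlaps Loxl3 from chr6:83051266 to 83052562. The sources used here do not state whether counting used strand, so a share of Loxl3 UMIs from Htra2 transcripts was not tested, and Htra2 itself had 86.3 CPM in wild-type Scx-high cells, 68.8 CPM in wild-type Scx-low fibroblasts, 51.7 CPM in mutant Scx-high cells and 54.9 CPM in mutant Scx-low fibroblasts.

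The wild-type library held 2364 cells with 9451606 UMIs (unique molecular identifiers, each standing for 1 captured mRNA molecule), and the mutant library held 2592 cells with 8250248 UMIs, and 2 cell barcodes occurred in both. Cells were classed by marker UMIs. Scx-high cells had 30 or more Scx UMIs per 10000, and Scx-low fibroblasts had 5 or more UMIs summed over Ly6a, Cd34, Dpt, Lum and Col3a1 and were neither Scx-high nor mural, immune, endothelial, neural or rich in haemoglobin. Scx-high cells made up 49.8% of the wild-type cells (1177) and 9.07% of the mutant cells (235), and Scx-low fibroblasts made up 28.4% (672) and 68.9% (1785). Scx UMIs include those of the ScxGFP transgene, as the study points out. The study reports that most mutant tendon cells had lost the ScxGFP signal at P7, and it proposes that cells with the signal were newly recruited. Ratios of mutant over wild-type Scx-high cells may thus compare cells of different origin, which was not tested. By lineage tracing, the study derives the ScxGFP-negative cells within mutant tendons from tenocytes. Mutant Scx-low fibroblasts may therefore include former tenocytes beside cells from around the tendon. Ratios between libraries within the Scx-low class may thus also compare cells of different origin, which was not tested either. Tgfbr2 had 30.9 CPM (counts per 1000000 UMIs) in wild-type and 45.2 CPM in mutant Scx-high cells, and a 3′ count need not fall when an upstream exon is lost, so it checks no label. Of 8 tendon markers outside the rule, 8 were at least 2-fold higher in Scx-high cells than in Scx-low fibroblasts of the wild-type library and 6 in the mutant library. Of 8 fibroblast markers outside the rule, 7 and 6 were at least 2-fold higher in Scx-low fibroblasts, and Dcn, which encodes the proteoglycan decorin, was lower there in the wild-type library with a ratio of 0.615. Summed over their lists, immune markers reached 9.43 to 69.8 CPM and endothelial markers 10.2 to 12.7 CPM in both classes of both libraries. The immune sum was highest in wild-type Scx-high cells, against 18.2 CPM in wild-type Scx-low fibroblasts. Mural markers summed to 906 CPM in wild-type Scx-high cells, where Ndufa4l2 alone had 847 CPM, and to 180 to 205 CPM in the other groups. With 1 library per condition no test was run, all intervals are exact 95% intervals that cover counting error only, and condition and library cannot be told apart.

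The family split in the wild-type library. Lox and Loxl2 were highest in Scx-high cells, Loxl1 was highest in Scx-low fibroblasts, Loxl3 was low with a slight lead in Scx-high cells, and Loxl4 was barely detected. In the mutant library the Loxl1 difference between the classes was nearly gone, and Scx-high cells there had Loxl1 close to the level of fibroblasts.

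**Figure D1:**
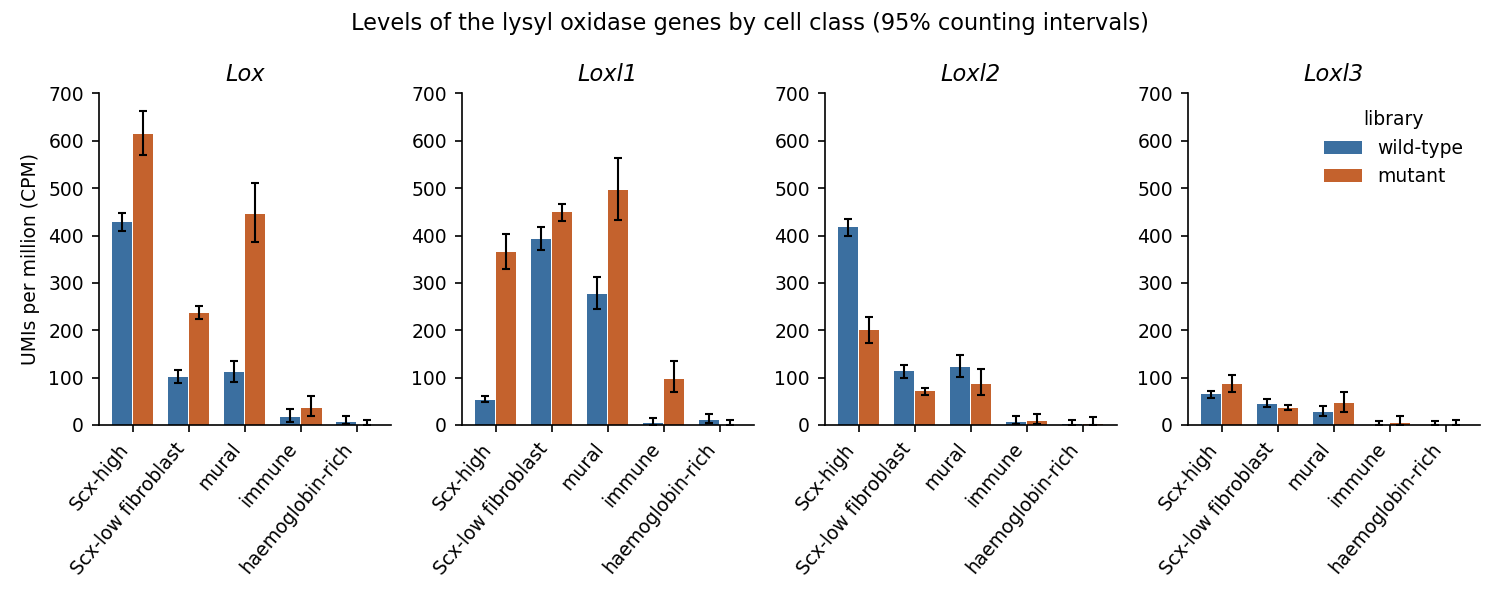
Levels of Lox, Loxl1, Loxl2 and Loxl3 in CPM (vertical axis) in 5 cell classes (horizontal axis) of the wild-type (blue) and mutant (orange) libraries. Bars are the summed UMIs of all cells of a class and lines are exact Poisson 95% intervals. Lox was highest in mutant Scx-high cells at 615 CPM, against 428 CPM in wild-type ones, Loxl2 was highest in wild-type Scx-high cells at 417 CPM, Loxl1 was at 53.7 CPM there against 365 CPM in mutant Scx-high cells, and the mutant mural bars of Lox and Loxl1 rest on cells admitted by 1 marker, Ndufa4l2.

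Lox, the founding member, had 428 CPM (95% interval 410 to 447) in wild-type Scx-high cells, 102 CPM (89.5 to 115) in wild-type Scx-low fibroblasts, 615 CPM (569 to 663.5) in mutant Scx-high cells and 237 CPM (225 to 251) in mutant Scx-low fibroblasts. Within each library the Scx-high level was above the fibroblast level, and within each class the mutant level was above the wild-type level, with no overlap of the intervals. Scx-high cells were 4.21-fold (3.70 to 4.82) above Scx-low fibroblasts in the wild-type library and 2.59-fold (2.36 to 2.85) above them in the mutant library. The mutant library was 1.44-fold (1.31 to 1.57) above the wild-type library in Scx-high cells and 2.34-fold (2.04 to 2.68) above it in Scx-low fibroblasts. In wild-type cells, mural cells (111 CPM, 90.9 to 135) could not be told from Scx-low fibroblasts, and immune cells were at 16.7 CPM (7.21 to 32.9).

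Loxl1, the member tied to elastic fibres, had 53.7 CPM (47.4 to 60.6) in wild-type Scx-high cells, 393 CPM (369 to 419) in wild-type Scx-low fibroblasts, 365 CPM (330 to 402.5) in mutant Scx-high cells and 449 CPM (431 to 467) in mutant Scx-low fibroblasts. Wild-type Scx-high cells stood alone at the low end, and the intervals of mutant Scx-high cells and wild-type Scx-low fibroblasts overlapped. Scx-high cells were 7.32-fold (6.38 to 8.42) below Scx-low fibroblasts in the wild-type library but 1.23-fold (1.11 to 1.37) below them in the mutant library. Between libraries, the ratio of mutant to wild-type was 6.79 (5.80 to 7.96) in Scx-high cells and 1.14 (1.06 to 1.23) in Scx-low fibroblasts. Next in order in the wild-type library came mural cells, at 277 CPM (244 to 313), below Scx-low fibroblasts.

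Loxl2, a member with scavenger receptor domains that also oxidises collagen IV, had 417 CPM (399 to 435) in wild-type Scx-high cells, 113 CPM (100.1 to 127) in wild-type Scx-low fibroblasts, 199.5 CPM (174 to 228) in mutant Scx-high cells and 71.1 CPM (64.2 to 78.5) in mutant Scx-low fibroblasts. It was lower in the mutant library in both classes, the opposite of Lox, while the order of the classes was the same. Scx-high cells were 3.69-fold (3.26 to 4.20) above Scx-low fibroblasts in the wild-type library and 2.81-fold (2.37 to 3.32) above them in the mutant library. The mutant level was 2.09-fold (1.82 to 2.42) lower than the wild-type level in Scx-high cells and 1.59-fold (1.36 to 1.86) lower in Scx-low fibroblasts. Mural cells of the wild-type library, at 123 CPM (102 to 148), could not be told from its Scx-low fibroblasts.

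Loxl3, a close relative of Loxl2, had 64.5 CPM (57.6 to 72.0) in wild-type Scx-high cells, 44.95 CPM (37.0 to 54.1) in wild-type Scx-low fibroblasts, 86.8 CPM (70.1 to 106) in mutant Scx-high cells and 36.1 CPM (31.2 to 41.5) in mutant Scx-low fibroblasts. The Scx-high level was the higher in both libraries, by 1.43-fold (1.15 to 1.80) and 2.41-fold (1.86 to 3.09). The mutant over wild-type ratio was 1.35 (1.06 to 1.70) in Scx-high cells and 0.803 (0.633 to 1.02) in Scx-low fibroblasts, and the last interval includes 1. Loxl4, another member with scavenger receptor domains, had 14 UMIs in 1177 wild-type Scx-high cells, none in 672 wild-type Scx-low fibroblasts and 3 UMIs in each class of the mutant library. Its wild-type level in Scx-high cells was 2.85 CPM (1.56 to 4.78), at least 2.35-fold above the floor of 3 UMIs in Scx-low fibroblasts (1.22 CPM). With the counting error of the 14 UMIs included, the exact lower limit of this ratio was 1.67. Its mutant over wild-type ratio in Scx-high cells was 0.972 (0.179 to 3.48). No direction can be read for Loxl4 at this depth in the mutant library.

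**Figure D2:**
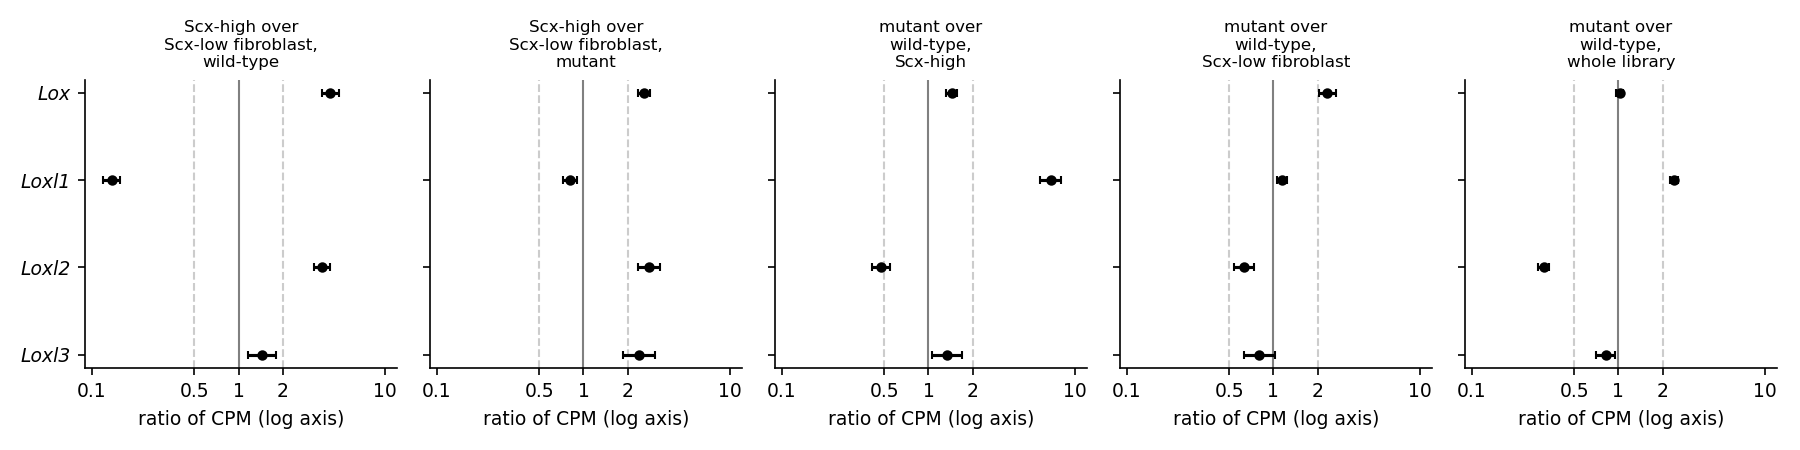
Ratios of CPM (horizontal log axis) for Lox, Loxl1, Loxl2 and Loxl3 in 5 comparisons, as points with exact conditional 95% intervals. The solid line marks a ratio of 1 and the dashed lines mark 2-fold. Loxl1 moved from 0.137 to 0.813 between the wild-type and the mutant comparison of cell classes, while Lox and Loxl2 stayed above 2 in both.

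Counted at 2-fold among the 4 members with at least 50 UMIs, 2 were higher in wild-type Scx-high cells than in Scx-low fibroblasts (Lox and Loxl2) and 1 was lower (Loxl1), against a background of 5.50% and 17.4% of the 8378 genes tested. In the mutant library 3 were higher (Lox, Loxl2 and Loxl3) and 0 were lower, against 4.84% and 11.0% of 8451 genes. Between libraries, 1 member was higher in mutant Scx-high cells (Loxl1) and 1 was lower (Loxl2), against 10.7% and 5.83% of 7467 genes. In Scx-low fibroblasts 1 was higher (Lox) and 0 were lower, against 4.25% and 4.11% of 9043 genes. The median log2 ratio of the 4 members was 1.20 for the wild-type classes and 1.32 for the mutant classes, where that of all genes was -0.43 and -0.10. For mutant over wild-type it was 0.47 in Scx-high cells and -0.06 in Scx-low fibroblasts, where that of all genes was 0.28 and -0.03. Wild-type Scx-high cells hold much type I collagen RNA (Col1a1 at 73200 CPM, against 20467 CPM in mutant Scx-high cells), which lowers the CPM of other genes there. How much of the shift of the median gene it makes up is not given here. With ratios centred on the median gene, Lox in Scx-high cells was 1.19 for mutant over wild-type, Loxl1 was 5.61 and Loxl2 was 0.395.

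Whole libraries gave another picture of Lox than the classes did. Wild-type and mutant levels were 262 CPM (252 to 273) and 267 CPM (256 to 279), a ratio of 1.02 (0.961 to 1.08), although it was higher in the mutant library in both classes. In the wild-type library 84.9% of the Lox UMIs lay in Scx-high cells, against 30.2% of those of the mutant library, where 59.4% came from Scx-low fibroblasts. Loxl1 was 2.40-fold higher (2.26 to 2.56) in the mutant library as a whole, at 384 CPM against 160 CPM, and Loxl2 was 3.21-fold lower (2.95 to 3.51), at 81.0 CPM against 260 CPM. Scx-low fibroblasts held 64.3% of the wild-type and 78.2% of the mutant Loxl1 UMIs. Loxl2 UMIs came from Scx-high cells at 83.3% and 32.3%. The study lists Lox and Loxl2 as lower in its mutant cell cluster than in its wild-type tenocyte cluster. Its clusters come nearest to the mutant Scx-low fibroblasts and the wild-type Scx-high cells here. Between these 2 classes Lox was lower in the mutant, at 237 against 428 CPM, and so was Loxl2, at 71.1 against 417 CPM. The study drew its lists from these libraries, so they are no independent evidence of direction.

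Shares of cells with a UMI gave the same split once each cell had been cut down at random to 1500 UMIs, a depth that 1089 and 631 wild-type and 216 and 1620 mutant cells of the Scx-high and Scx-low classes reached. For Loxl1 the thinned share was 7.90% of wild-type Scx-high cells, 38.7% of wild-type Scx-low fibroblasts, 32.9% of mutant Scx-high cells and 38.2% of mutant Scx-low fibroblasts. For Loxl2 it was 42.3%, 13.8%, 17.6% and 9.44% in the same order. For Lox it was 44.1%, 12.7%, 44.0% and 19.1%, so the higher mutant CPM in Scx-high cells did not come with a larger share of cells. More UMIs per cell went with it instead, since 23.4% of mutant and 8.92% of wild-type Scx-high cells held 5 or more Lox UMIs, at median depths of 4251 and 4288 UMIs per cell. Before thinning, the Lox shares were 70.4%, 25.0%, 66.8% and 28.1%. Red blood cells should lack the family and give the level of free RNA. Among 88 haemoglobin-rich wild-type cells with a median of 5682 UMIs 3.41% had a Lox UMI, 4.55% a Loxl1 UMI and 1.14% a Loxl2 UMI. Of 79 haemoglobin-rich mutant cells, 0 had a Lox UMI, which allows a share of up to 3.80% by the floor of 3 counts and of up to 4.56% by the exact interval.

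Along the Scx scale the members went separate ways. In wild-type cells, from those without an Scx UMI to those with 300 or more per 10000, Lox rose from 97.9 CPM (76.2 to 124) to 575 CPM (537 to 615) and Loxl2 from 111 CPM (87.5 to 138) to 454 CPM (421 to 489.5), while Loxl1 fell from 414 CPM (368 to 465) to 45.2 CPM (35.1 to 57.2). Most of the drop in Loxl1 lay between the bins of 10 to 30 (302 CPM) and 30 to 100 (94.9 CPM). In mutant cells Lox went from 181 CPM (168 to 194) to 706.5 CPM (624 to 797), Loxl2 from 57.4 CPM (50.4 to 65.1) to 274 CPM (223 to 332) and Loxl3 from 31.4 CPM (26.3 to 37.2) to 130 CPM (96.3 to 172). Loxl1 lay between 329 and 535 CPM in every mutant bin. It was 423 CPM (403 to 443) without an Scx UMI and 535 CPM (454 to 626) at 10 to 30 Scx UMIs per 10000. From there it fell through 412 and 355 CPM to 329 CPM (274 to 393) in the 66 cells at 300 or more. Loxl1 thus also fell at high Scx in the mutant library, but far less than in the wild-type library. The mutant cells with the most Scx thus had Loxl1 well above wild-type cells of the same Scx bin. Around the class threshold, wild-type Lox was 198 CPM in 29 cells at 20 to 30 Scx UMIs per 10000 and 106 CPM in 27 cells at 30 to 40, and Loxl1 was 240 and 106 CPM. In the mutant library the same bins gave 412.5 and 593 CPM for Lox and 526 and 486 CPM for Loxl1.

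**Figure D3:**
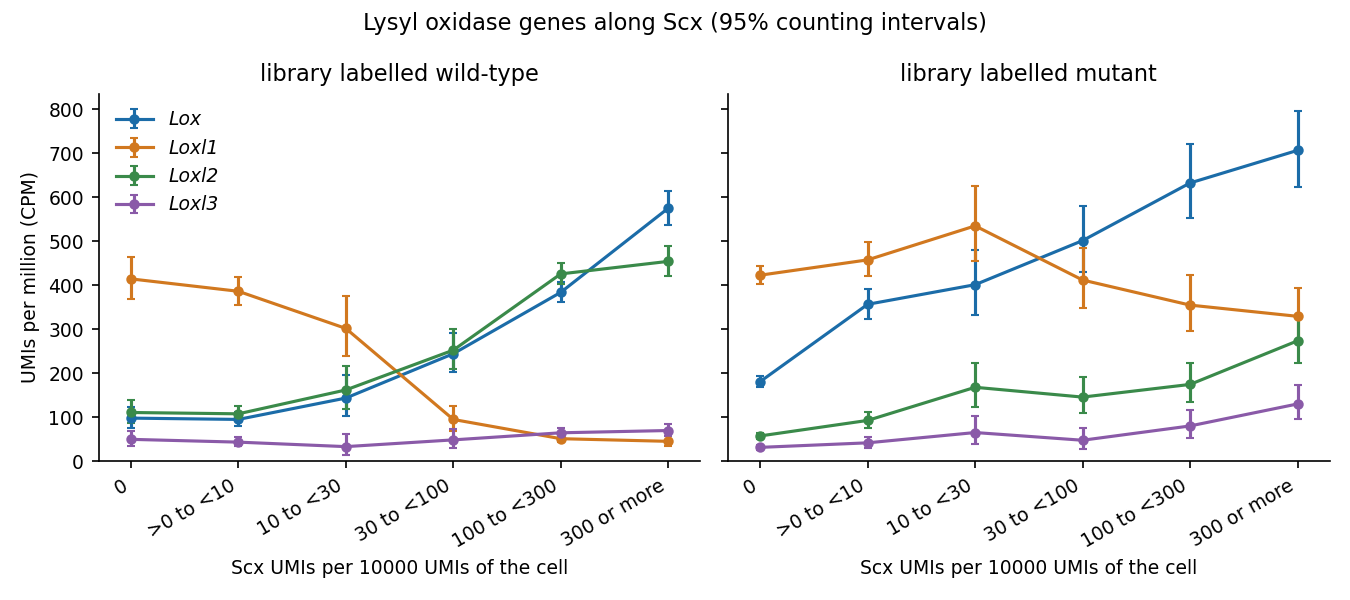
Levels of 4 members in CPM (vertical axis) in 6 bins of Scx UMIs per 10000 (horizontal axis), for Scx-high, Scx-low fibroblast and unclassed cells of the wild-type (left) and mutant (right) libraries. Points are sums over the cells of a bin, with exact Poisson 95% intervals. Loxl1 dropped to 45.2 CPM in the top wild-type bin and was 329 CPM in the top mutant bin, its lowest mutant value.

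Mutant Scx-low fibroblasts were uneven in Lox. The highest 5% of cells, 90 of them, held 52.2% of the Lox UMIs of this class, and 1 cell had 21 UMIs. The same share was 28.9% for Loxl1, 49.0% for Loxl2 and 54.8% for Loxl3. Such a share also rises as UMIs become fewer, so it cannot compare members of unlike counts. The class held 1309 UMIs of Lox, 2475 of Loxl1, 392 of Loxl2 and 199 of Loxl3. Cells with 5 or more UMIs numbered 82 for Lox, 138 for Loxl1, 4 for Loxl2 and 0 for Loxl3. The cells of this class were split by Eln, the gene of elastin, a substrate of the family. The split and the further genes named with it were chosen after the data had been seen. From mutant Scx-low fibroblasts without an Eln UMI (1183 cells) through cells with under 10, 10 to 30, 30 to 100 and 100 or more Eln UMIs per 10000 (289, 70, 83 and 160 cells), Lox was 78.3, 128, 381, 463 and 1073 CPM. Loxl1 was 296.5, 380, 708.5, 708 and 1128 CPM in the same bins. Both went up with Eln, and the interval of the top bin (994 to 1156 CPM for Lox and 1047 to 1214 CPM for Loxl1) lay above those of all lower bins. Loxl2 was 55.5, 74.1, 224, 121 and 67.8 CPM, highest in the middle bin and back near the fibroblast level at the top. Loxl3 ranged from 29.4 to 67.3 CPM. The top bin was 8.96% of the cells and held 51.9% of the Lox UMIs, and its thinned share with a Lox UMI was 68.9%, against 10.7% without Eln. Fbln5, which encodes an elastic fibre protein that binds Loxl1, went from 99.3 to 1186 CPM between the lowest and the highest bin. Fbn1, which encodes fibrillin-1 of microfibrils, went from 244 to 1147 CPM. Efemp2, from the list of partners and scaffolds followed below, went the other way, from 382 to 265 CPM. Ltbp4, from the same list, was 121 CPM in the lowest, 264.6 CPM in the middle and 167 CPM in the highest bin. Ly6a, a gene of the class rule, fell from 1066 to 295 CPM. Acta2, the gene of smooth muscle actin, which the class rules did not use, was 43.5, 153, 256, 342 and 142 CPM over the 5 bins, higher in all bins with Eln than without, and its part in the result was not tested. Mural genes of the class rule are low in these bins by construction.

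The other groups differed in how the members went with Eln. Wild-type Scx-low fibroblasts had 63.4, 92.0, 181 and 211 CPM of Lox and 342, 373, 426.5 and 633 CPM of Loxl1 over the first 4 bins, and only 13 of them reached 100 Eln UMIs per 10000. In 22 mutant Scx-high cells with 100 or more Eln UMIs per 10000, Lox was 1218 CPM (1008 to 1458), Loxl1 1022 CPM (830.5 to 1244) and Loxl2 61.9 CPM (22.7 to 135). These 22 cells were less tendon-like than mutant Scx-high cells without Eln, with Scx at 7896 against 29451 CPM. Tnmd was at 795 against 5377 CPM. Rgs5, a mural marker, was at 279 against 13.1 CPM and was found in 9.09% of the 22 cells. Pi16, a fibroblast marker, was at 113.5 against 3.29 CPM. The Scx-high rule does not leave mural cells out. Wild-type Scx-high cells, of which 3 reached 100 Eln UMIs per 10000, had Lox at 341, 457 and 449 CPM and Loxl1 at 69.7, 43.6 and 66.5 CPM over the first 3 bins, so neither member rose steadily with Eln there. Without the cells at or above 100 Eln UMIs per 10000, the Lox ratio of mutant over wild-type Scx-low fibroblasts went from 2.34 to 1.38, that of Loxl1 from 1.14 to 0.951, and that of Lox over whole libraries from 1.02 to 0.628. The Loxl1 ratio in Scx-high cells was 5.59 without them.

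**Figure D4:**
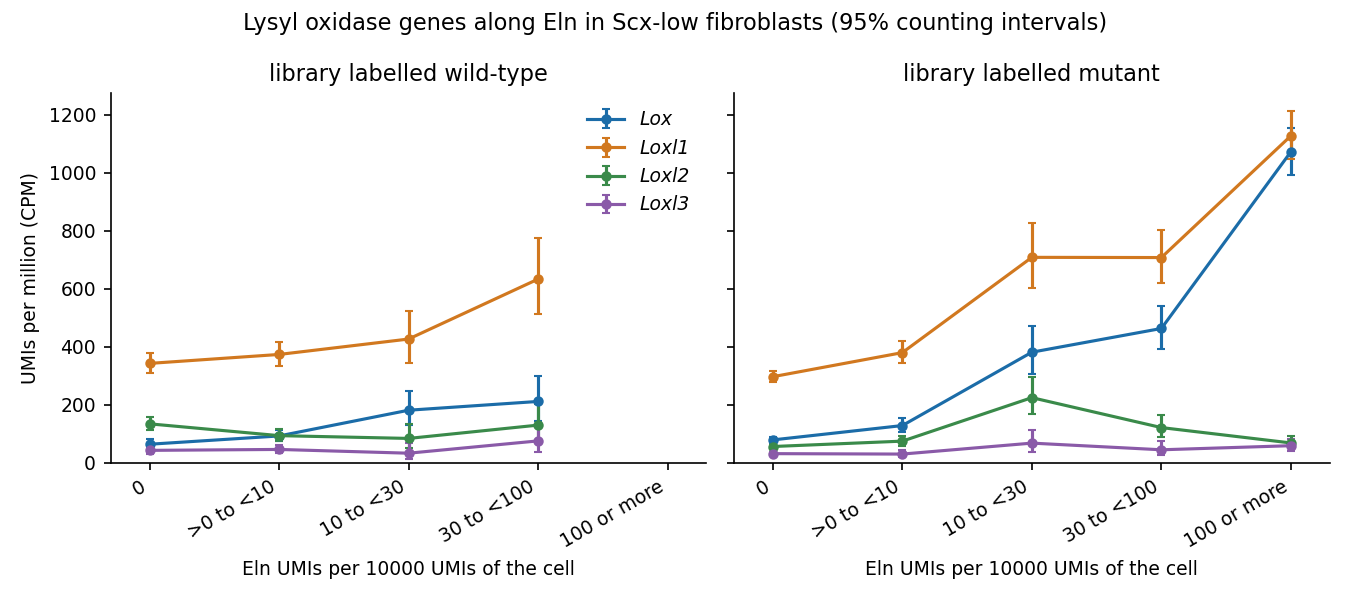
Levels of 4 members in CPM (vertical axis) in bins of Eln UMIs per 10000 (horizontal axis) in Scx-low fibroblasts of the wild-type (left) and mutant (right) libraries, with exact Poisson 95% intervals. Bins under 20 cells are left out, which removes the top wild-type bin. Lox and Loxl1 reached 1073 and 1128 CPM in the top mutant bin, where Loxl2 was 67.8 CPM.

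Mural cells, the pericytes and smooth muscle cells of vessels, depended on the marker rule. With all 8 markers, Lox was 111 CPM in 188 wild-type and 445 CPM in 123 mutant mural cells, and Loxl1 was 277 and 495 CPM. However, 33 cells in each library held at most 1 UMI of the other markers and entered through Ndufa4l2, which 385 of 1177 wild-type Scx-high cells also had at 3 or more UMIs. Without Ndufa4l2, an alternative chosen after the data had been seen, 140 and 84 mural cells remained, and Lox was 83.2 CPM (63.0 to 108) and 110 CPM (73.9 to 159). Loxl1 was then 247 CPM (211 to 287) and 301 CPM (238 to 375), Loxl2 was 107 and 114 CPM, and Loxl3 was 26.3 and 41.9 CPM, with overlapping intervals for each. Immune cells had 3 Loxl2 UMIs in each library, and the 38 Loxl1 UMIs of 195 mutant immune cells sat in 10 cells, with 11 in a single cell, where 180 wild-type immune cells had 2. Endothelial cells (21 and 29) and neural cells (2 and 55) were too few to describe beyond their counts, with at most 4 UMIs of any member in endothelial cells and at most 11 in neural cells.

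The members were also set against type I collagen, their main substrate in tendon. Per 1000 UMIs of Col1a1 and Col1a2 together, Lox had 3.58 UMIs in wild-type and 18.9 in mutant Scx-high cells, Loxl1 0.449 and 11.2, and Loxl2 3.49 and 6.12. Loxl2 was thus lower in CPM and higher per type I collagen UMI in mutant Scx-high cells, since Col1a1 and Col1a2 were 3.58-fold and 3.83-fold lower there. In Scx-low fibroblasts the values were 5.62 and 12.3 for Lox, 21.7 and 23.3 for Loxl1, and 6.24 and 3.69 for Loxl2.

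Within the classes the members also varied with known subsets. Of the wild-type Scx-high cells, 711 with 3 or more UMIs of Col2a1, the type II collagen gene of cartilage and fibrocartilage, had 1.30-fold (1.18 to 1.43) the Lox and 1.26-fold (1.15 to 1.39) the Loxl2 of the other 466, with Loxl1 at 0.754 (0.585 to 0.975). Cells with a UMI of Car9, a carbonic anhydrase gene induced by low oxygen, had 1.37-fold (1.25 to 1.50) the Loxl2 and 1.22-fold (1.12 to 1.34) the Lox of the others. These cells were deeper, with medians of 4815 and 3169 UMIs for the Col2a1 split and 4838 and 3450 for the Car9 split, and the part of depth was not tested. Pi16 is a marker of fibroblasts around vessels. Wild-type Scx-low fibroblasts with 2 or more UMIs of Pi16 had 623 CPM of Loxl1 against 274 CPM in the others. The Loxl1 ratio was 2.27 (2.00 to 2.58) there and 1.53 (1.38 to 1.69) in the mutant library, at 641 against 420 CPM. Lox was also higher with Pi16, at 1.48 (1.14 to 1.915) in the wild-type and 1.285 (1.10 to 1.49) in the mutant library. Loxl2 was at 0.934 (0.719 to 1.21) and 1.36 (1.03 to 1.78). In wild-type Scx-low fibroblasts with 3 or more UMIs of Tnmd, the tendon gene tenomodulin, Loxl1 was 2.11-fold (1.71 to 2.62) lower and Lox 1.51-fold (1.12 to 2.01) higher than in the others. In the mutant library the same split gave 1.23-fold (1.12 to 1.35) lower Loxl1 and 1.37-fold (1.22 to 1.54) higher Lox. Cycling cells had less Loxl2 among wild-type Scx-high cells, at 294 against 431 CPM, a ratio of 0.681 (0.572 to 0.807). Among mutant Scx-low fibroblasts they had more of both Lox, at 438 against 219 CPM (ratio 2.00, 1.72 to 2.33), and Loxl2, at 127 against 66.0 CPM (ratio 1.92, 1.43 to 2.54). Loxl1 was 1.54-fold (1.07 to 2.17) higher in cycling wild-type Scx-high cells, and the other intervals of Lox, Loxl1, Loxl2 and Loxl3 in both classes of both libraries included 1. Cycling cells were deeper in each group, and the part of depth was not tested.

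Members met in the same cells to different degrees. After thinning, Loxl1 was found in 55.8% (50.1 to 61.4) of mutant Scx-low fibroblasts with a Lox UMI and in 34.0% (31.5 to 36.7) of those without, and in the wild-type library these shares were 55.0% (43.5 to 66.2) and 36.3% (32.3 to 40.5). Loxl2 was found in 47.3% (42.7 to 51.9) of wild-type Scx-high cells with a Lox UMI. Among those without, it was found in 38.4% (34.5 to 42.4). In mutant Scx-low fibroblasts with and without a Lox UMI, Loxl2 was found in 15.5% (11.6 to 20) and 8.02% (6.60 to 9.62). Loxl3 was found there in 10% (6.90 to 13.9) and 4.66% (3.58 to 5.94). The intervals overlapped for Lox with Loxl1, Loxl2 or Loxl3 in mutant Scx-high cells, and for Lox with Loxl2 in wild-type Scx-low fibroblasts. For Loxl1 and Loxl2 the intervals overlapped, with Loxl2 in 33.7% (23.9 to 44.7) of wild-type Scx-high cells that had Loxl1 and in 43.1% (39.98 to 46.2) of those that did not. These shares were not tested and describe the cells of single libraries.

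Over the 11 class-by-library groups with at least 30 cells, the genes whose log2 levels were most like each member were compared among 9402 genes. For Lox these were Thbs2 (Pearson r of 0.964), P4hb (0.943) and Ephb3 (0.939). For Loxl1 they were Aspn (0.950), Fstl1 (0.949) and Col5a1 (0.945). For Loxl2 they were Lman1 (0.982), Gbf1 (0.966) and Tnc (0.952), and for Loxl3 P3h4 (0.971), P3h3 (0.961) and Ndrg3 (0.957). The 11 groups come from only 2 libraries and share their depth, so the correlations are descriptions. With a pseudocount of 1 CPM in place of 10, P4hb, Col5a1, Tnc, P3h3 and Ndrg3 were no longer among the 3 genes most like their member. Aspn and Col5a1 encode matrix proteins of fibroblasts, P4hb is a subunit of collagen prolyl hydroxylase, and P3h3 and P3h4 act on collagen in the endoplasmic reticulum.

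The genes around the family were followed by role, from a list of 29 genes, of which those named below were picked with their values in view, except for 3 that passed 2-fold in the same direction in both libraries (Pcolce2, Fmod and Col11a1). Propeptide cleavage was represented by 3 genes with enough UMIs, and 3 of 3 were at least 2-fold lower in mutant than in wild-type Scx-high cells. Bmp1, the protease that activates Lox and Loxl1, was 2.46-fold (1.91 to 3.22) lower. Pcolce was 2.18-fold (2.09 to 2.28) and Pcolce2 5.22-fold (4.16 to 6.62) lower. These 2 genes encode enhancers of procollagen cleavage, and a part of theirs in the activation of Lox or Loxl1 was not tested. Of 8 partners and scaffolds, 4 were higher in mutant Scx-high cells and 1 was lower. Postn, encoding periostin, which helps Bmp1 act on Lox, was 21.4-fold (19.8 to 23.1) higher, Fn1, encoding fibronectin, 5.94-fold (5.63 to 6.26), Fbln5 4.41-fold (3.74 to 5.21) and Thbs1, encoding thrombospondin-1, 3.98-fold (3.41 to 4.65). Fmod, encoding fibromodulin, which binds Lox and collagen, was 2.15-fold (2.07 to 2.24) lower.

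Of 2 assessed genes for copper supply, 0 passed 2-fold. Atox1, the copper chaperone, was at 1.01 (0.917 to 1.12) and Slc31a1, the copper importer, at 0.950 (0.695 to 1.28) for mutant over wild-type Scx-high cells, and Atp7a, the pump that loads copper onto secreted enzymes, had too few UMIs in Scx-high cells (24 and 3). Of 5 genes for lysine hydroxylation, Plod2, the telopeptide lysyl hydroxylase whose product sets the type of cross-link, was 5.91-fold (4.99 to 7.02) higher in mutant Scx-high cells and the other 4 lay between 0.771 and 1.15. Of 8 substrate genes, 5 were higher in mutant Scx-high cells (Col3a1, Col5a1, Eln, Fbn1 and Fbn2, from 2.55-fold to 14.9-fold) and 3 were lower (Col1a1, Col1a2 and Col11a1, from 2.47-fold to 3.83-fold). The Eln level rested on few cells, since 22 of the 235 mutant Scx-high cells held 88.2% of its UMIs. After thinning, 34.3% (27.9 to 41.0) of mutant and 47.7% (44.7 to 50.8) of wild-type Scx-high cells had an Eln UMI, and among cells with 300 or more Scx UMIs per 10000 Eln was lower in the mutant library, at 329 against 594 CPM. Over all roles, 10 of 26 genes with at least 50 UMIs were higher and 7 were lower, where 10.7% and 5.83% of all genes tested were.

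**Figure D5:**
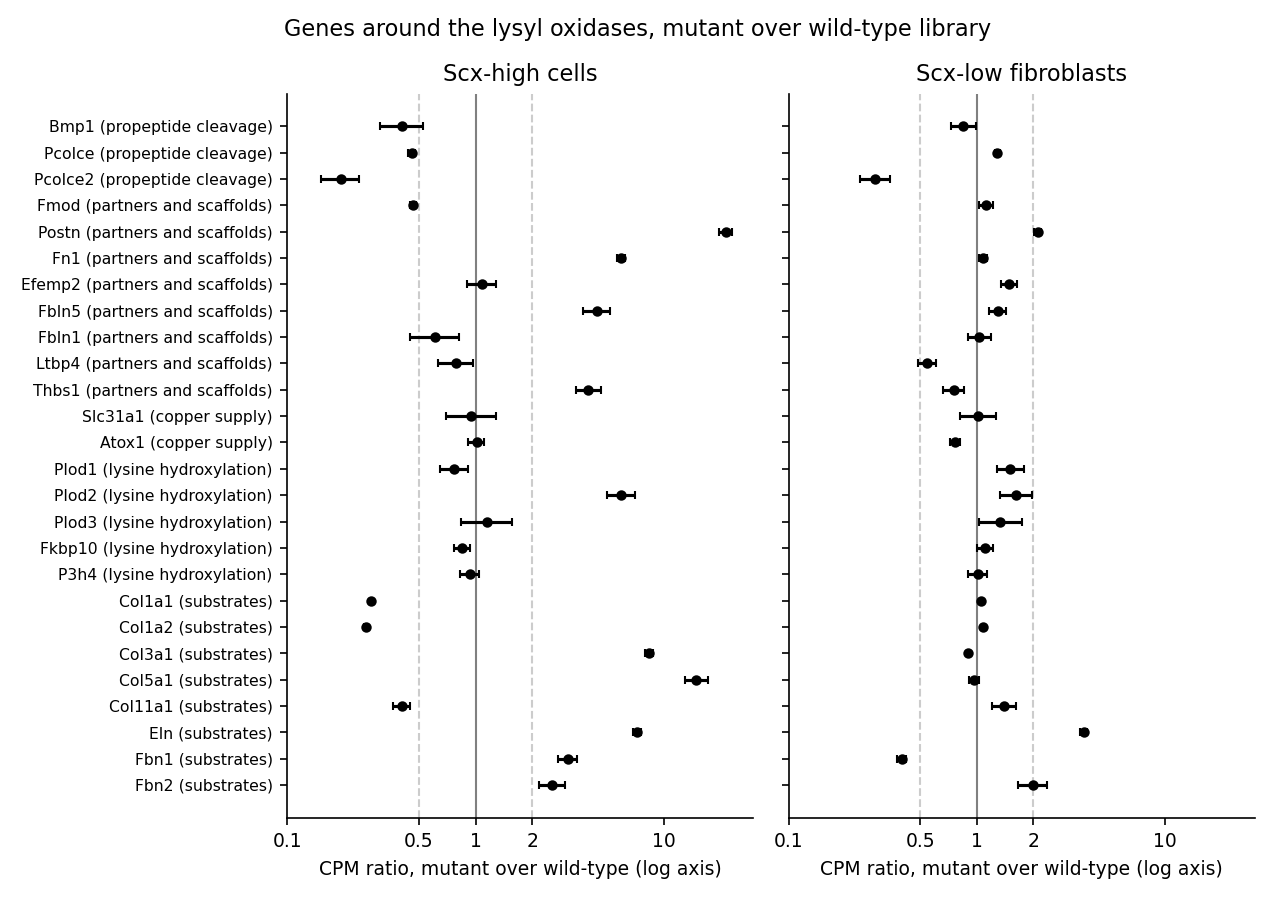
Ratios of CPM for mutant over wild-type (horizontal log axis) of 26 genes around the lysyl oxidases, named with their role on the vertical axis, in Scx-high cells (left) and Scx-low fibroblasts (right), with exact conditional 95% intervals. The solid line marks 1 and the dashed lines 2-fold. In Scx-high cells 10 genes were past 2-fold higher and 7 past 2-fold lower, while most genes of Scx-low fibroblasts lay between the dashed lines.

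In Scx-low fibroblasts 2 of 27 genes of the list were higher and 2 were lower between libraries, where 4.25% and 4.11% of all genes tested were. Higher were Eln at 3.70-fold (3.55 to 3.85) and Postn at 2.10-fold (2.02 to 2.19), and lower were Pcolce2 at 3.48-fold (2.89 to 4.18) and Fbn1 at 2.51-fold (2.38 to 2.65). The 160 mutant cells rich in Eln held 87.5% of the Eln UMIs of this class, and the thinned share of cells with an Eln UMI was 28.0% (25.8 to 30.3) in mutant against 34.7% (31.0 to 38.6) in wild-type Scx-low fibroblasts, so the higher level did not come with more cells. Between the classes, 9 of 25 genes were higher and 7 lower in wild-type Scx-high cells, where 5.50% and 17.4% of all genes were. In the mutant library 6 were higher and 2 were lower, where 4.84% and 11.0% of all genes were. Pcolce2, Fmod and Col11a1 were higher in Scx-high cells of both libraries, as Lox and Loxl2 were. Fmod stood out at 18.1-fold (16.8 to 19.5) among wild-type and 7.49-fold (7.06 to 7.96) among mutant cells. Col11a1, encoding a chain of type XI collagen that helps to start fibrils, was 9.80-fold (8.59 to 11.2) and 2.85-fold (2.52 to 3.22) higher. No gene of the list was at least 2-fold lower in Scx-high cells of both libraries, and Loxl1 was likewise past 2-fold only in the wild-type library.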

How the data were processed

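The authors prepared 10x Genomics 3′ libraries, aligned reads to mm10 and filtered cell barcodes by total UMI count with Cell Ranger at default settings, version 2.0 by the methods of the study but 1.2.0 by the submitters' processing notes, and deposited UMI counts per gene and cell without normalization. All deposited barcodes were used. Cells held from 903 to 15968 UMIs. Counts were summed over the cells of a class and scaled to CPM, with exact Poisson intervals for levels, exact binomial intervals for shares of cells and exact conditional intervals for ratios. Genes with at least 50 UMIs over both groups of a comparison formed the background, and 2-fold was the threshold for a count.

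Classes were assigned in a fixed order. Scx-high cells came first, where haemoglobin genes made up at most 50% of the UMIs, then all cells with over 50% haemoglobin UMIs. Next came mural, immune, endothelial or neural cells with at least 5 UMIs over the markers of that type, then Scx-low fibroblasts. The mural list was Rgs5, Myh11, Notch3, Kcnj8, Cspg4, Higd1b, Ndufa4l2 and Abcc9. Cells with markers of more than 1 class (279 wild-type and 24 mutant) stayed in, as did those called as doublets by Scrublet (26 and 8), and both were left out as alternatives. Genes named as most like a member were the 3 with the highest Pearson correlation of log2(CPM + 10). The members always were named, and pathway genes past 2-fold in the same direction in both libraries could be. Members, classes and lists were chosen with earlier results of these data known. Alternatives changed the Scx threshold to 20 or 50, the fibroblast rule to 3 or 10 UMIs, the order of rules, the cells kept (at least 500 genes and under 10% mitochondrial UMIs, no doublets, no cycling cells), the weight of each cell, the total, the centring and the pseudocount (1 CPM). With 1 library per condition no test across libraries was possible. Ratios were tested on simulated sums drawn with counting error only, so the spread between cells was not covered. Thinning was tested on cells of the wild-type library. Gene models came from GENCODE M21. Python 3.11.15, NumPy 2.4.6, SciPy 1.17.1, pandas 2.3.3 and scanpy 1.11.5 were used.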

Additional observations from a re-analysis of the deposited data

How the results depend on the processing

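Of 120 recomputed counts of members past 2-fold, 116 stayed within 1.5 times the value given. Of 345 recomputed ratios, 50 left the interval of the value given, and 8 came to lie on the other side of 1, namely 5 for Lox over whole libraries, 1 for Loxl1 in Scx-low fibroblasts (0.951) and 2 for Loxl2 in mural cells (0.710 with all 8 markers, 3.70 with the fibroblast rule before other types and 1.07 without Ndufa4l2). Thinning lowered 19 of 20 shares of cells. The count of members lower in mutant Scx-high cells went from 1 to 0 with an Scx threshold of 50 per 10000 (Loxl2 ratio 0.521) and with cells rich in Eln left out, and the count of members higher in mutant Scx-low fibroblasts went from 1 to 0 with each cell weighing the same (Lox ratio 1.87) and with cells rich in Eln left out (Lox ratio 1.38). Leaving out cells rich in Eln, added after the data had been seen, also moved the Lox ratio of Scx-high over Scx-low cells in the mutant library from 2.59 to 4.31 and that of mural cells from 4.002 to 1.04. Over the 15 alternatives, the Loxl1 ratio in Scx-high cells of mutant over wild-type ranged from 5.59 to 7.51 and that of Loxl2 from 0.395 to 0.521. The wild-type ratio of Scx-high over Scx-low cells ranged from 3.91 to 5.66 for Lox, from 0.130 to 0.184 for Loxl1 and from 3.53 to 4.96 for Loxl2. With a pseudocount of 1 CPM, 1 of 3 genes most like Loxl3 and 2 of 3 for each of Lox, Loxl1 and Loxl2 were those given. No paired analysis was possible because each condition had 1 library. Loxl4, with 20 UMIs in all, was below the depth needed to compare the classes of the mutant library.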
